A study of Drosophila melanogaster with 2 samples.

Results

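The genes described here encode the proteins of the mitochondrial ribosome of Drosophila melanogaster. Members were defined by symbol, as the protein-coding genes of the Ensembl annotation whose symbols begin with mRpL (large subunit) or mRpS (small subunit). The gene set itself was chosen with earlier results of these data known. This gave 73 genes, 47 mRpL and 26 mRpS, of 13968 protein-coding genes on the 7 main chromosome arms. The regions come from chromatin immunoprecipitation and sequencing (ChIP-seq) of fd59A, a transcription factor of the forkhead family. Per the labels, the flies were a stable transgenic line that makes fd59A with green fluorescent protein (eGFP) fused to its C terminus, and an anti-GFP antibody was used. The material was whole prepupae, with males and females pooled and the age labelled 24 day, a value whose unit is uncertain for this stage. The samples are biological replicates 2 and 3, separate biosamples of 1 line, and they form 1 group.

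The labels name no other allele, treatment or genotype, and they do not say which regulatory sequence drives the transgene or what each replicate pooled. Whole animals mix all cell types, so a region here cannot be placed in a tissue. A control alignment entered the calls, per the deposited file listing, but no control library is among the samples, so a control's signal at these regions was not examined here and no comparison between conditions exists. Sequencing depth is unknown, because the deposited lists hold regions and not reads.

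The mitochondrial ribosome translates the few proteins of the respiratory chain and ATP synthase that mitochondrial DNA still encodes. Its RNAs come from mitochondrial DNA, while its proteins come from nuclear genes and are imported into the organelle. Some of these proteins have bacterial counterparts, and others exist only in mitochondria. Forkhead factors bind DNA through a winged-helix domain, and their core site is often written TAAACA.

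Of the mitochondrial ribosomal protein genes, 4 had a very strong region at the promoter, others had weaker regions, and 36 of 73 had none in any list. The share of all protein-coding genes with none was not counted, so the 36 are not shown to be unusual. A gene was counted when the summit of a region, its point of highest signal, lay within 500 bp of any of its transcription start sites. One list was thresholded by the irreproducible discovery rate (IDR), which measures how well regions repeat between replicates. Its 5327 regions were the 5327 strongest of the list from the pooled replicates. It thus amounts to a cut of that list by signal, and a single region in it need not be strong in both replicates. In the IDR list 16 of the 73 genes had a summit (21.9%, Wilson 95% interval 13.97 to 32.7), against 13.4% of all protein-coding genes. The count was 9 of 47 mRpL genes (19.1%, interval 10.4 to 32.5) and 7 of 26 mRpS genes (26.9%, interval 13.7 to 46.1), and these intervals overlap. Among the 1000 strongest IDR regions the count was 6 of 73 (8.22%, interval 3.82 to 16.8), against 3.22% of all protein-coding genes. Each of the 16 genes had a single IDR summit, and no region served a second member. The intervals cover counting error only, since these are all the genes of the rule and neighbouring genes can share a region.

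The promoters of these genes are often shared with another gene, and among genes with a shared promoter, as among those without, the members' share was close to the background. A start site of another protein-coding gene lay within 500 bp at 54 of the 73 genes (74.0%, interval 62.9 to 82.7), against 30.8% of all protein-coding genes. Among genes with such a shared promoter, 14 of 54 members had an IDR summit (25.9%, interval 16.1 to 38.9), against 23.2% of all genes of that kind. Without one, 2 of 19 members had a summit (10.5%, interval 2.94 to 31.4), against 9.03% of all genes of that kind. Among genes with 1 start site, whose promoters may be shared or not, the members' share was above the background, at 14 of 67 members (20.9%, interval 12.9 to 32.1), against 9.49% of all such genes.

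Most of these summits lay closer to the neighbour than to the mitochondrial ribosomal protein gene. When a summit was counted only for the gene with the nearest start site, 4 of the 73 members kept one, mRpL41, mRpL23, mRpS6 and mRpL37 (5.48%, interval 2.15 to 13.3), against 10.2% of all protein-coding genes. Among genes with a shared promoter the same count was 3 of 54 members (5.56%, interval 1.91 to 15.1), against 13.6% of all such genes. Of the 14 members with a shared promoter and an IDR summit, the gene's own start site was the nearest in 3 (21.4%, interval 7.57 to 47.6), against 586 of 998 genes of that kind (58.7%, interval 55.6 to 61.7). The assignment of a region to the mitochondrial ribosomal protein gene therefore depends on the counting rule, and ChIP-seq does not say which gene of a pair a region acts on, if any. By the nearest start site a gene counts through any of its start sites. Only 1 is annotated at 91.8% of members, against 73.5% of all genes. The nearest-start-site shares were not restricted to genes with 1 start site.

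**Figure D1:**
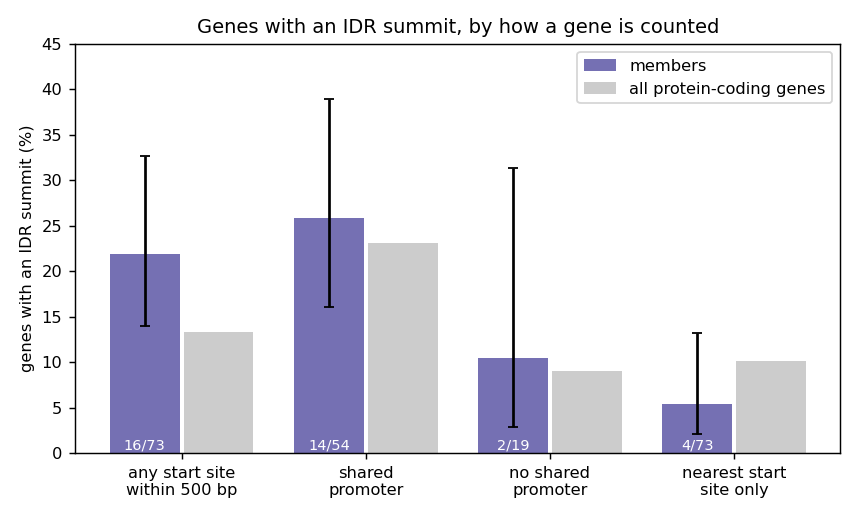
Percent of genes with an IDR summit among mitochondrial ribosomal protein genes (purple, with Wilson 95% intervals and the counts at the foot of the bars) and among all protein-coding genes (grey), for any start site within 500 bp, for genes with and without a shared promoter, and for the nearest start site only. The members' share is above the background in the first pair (21.9% and 13.4%), close to it in the next pairs, and below it when only the nearest gene is counted (5.48% and 10.2%). In that last pair the members' interval holds the background.

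The 4 strongest members stood apart from the rest. The region at mRpS10, whose bacterial counterpart S10 sits in the head of the small subunit, had a signal of 1740 in the pooled list (rank 21), 725 in replicate 2 (rank 24) and 1031 in replicate 3 (rank 19). The region at mRpS23, a protein of the small subunit found only in mitochondria, had 1731 in the pooled list (rank 22), 734 in replicate 2 (rank 23) and 998 in replicate 3 (rank 20). The regions at these genes were therefore among the strongest of either replicate. The region at mRpL41, a large-subunit protein specific to mitochondria, had 1494 in the pooled list (rank 35), 588 in replicate 2 (rank 53) and 923 in replicate 3 (rank 28). At mRpL23, whose counterpart L23 lies at the mouth of the exit tunnel in bacterial ribosomes, the values in the same order of lists were 1359 (rank 47), 552 (rank 62) and 809 (rank 43), for a region on 3L from 2373448 to 2373791 in dm6. Signal is the authors' own value for each region, its scale differs between lists, and ranks run from 1 for the strongest region of a list. The pooled signal then dropped 2.20-fold between mRpL23 and the fifth member, mRpL24, and no other step between neighbours in the order was larger. Of the members with an IDR summit, 4 of 16 had a region of rank 50 or better (25%, interval 10.2 to 49.5), against 32 of 1870 protein-coding genes (1.71%). That limit lies just past the fourth member, at rank 47, and the contrast narrowed at wider limits. At rank 100 or better it was 4 of 16 members against 71 of 1870 genes. At rank 500 or better it was 5 of 16 against 274 of 1870. The share at rank 50 rests on 4 regions, and 3 of them lay within 500 bp of a second gene.

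The sequence under the strongest summits was AT-rich, and it is shown for mRpS10 and mRpS23, the 2 members of highest signal, and for mRpL24 and mRpS31, which carry a match to the forkhead core TAAACA at intermediate and at low signal. Each stretch runs 50 bases to either side of the summit in the dm6 genome and is read 5′ to 3′ along the strand of the member. Capitals mark matches to the forkhead core, which reads TGTTTA when it is on the opposite strand, and to TAATTA, a homeodomain core. The stretch at mRpS10 is chr3R:15229478-15229578 on the plus strand, that at mRpS23 is chr2L:13835408-13835508 on the minus strand, that at mRpL24 is chr2L:4945439-4945539 on the minus strand and that at mRpS31 is chr3L:16004743-16004843 on the plus strand.
mRpS10: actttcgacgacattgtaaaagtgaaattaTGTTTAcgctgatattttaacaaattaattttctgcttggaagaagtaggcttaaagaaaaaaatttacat
mRpS23: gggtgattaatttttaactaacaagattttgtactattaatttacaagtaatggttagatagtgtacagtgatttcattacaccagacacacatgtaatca
mRpL24: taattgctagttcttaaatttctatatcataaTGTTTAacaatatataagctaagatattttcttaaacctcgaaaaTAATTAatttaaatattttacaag
mRpS31: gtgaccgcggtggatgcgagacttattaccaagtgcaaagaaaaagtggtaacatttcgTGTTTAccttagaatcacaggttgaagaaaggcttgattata
The GC content of these stretches was 26.7% at mRpS10, 28.7% at mRpS23, 17.8% at mRpL24 and 40.6% at mRpS31. The mRpS23 stretch holds none of the 9 motifs searched, and the signal at mRpS10 was 1.01 times that at mRpS23. A relation between motif matches and signal was not tested. Some of these stretches were picked for their match to the forkhead core, which 4 of the 16 summit windows hold.

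The other 12 members with an IDR summit covered the rest of the signal range. At mRpL24, whose bacterial counterpart takes part in early assembly of the large subunit, the region had 618 in the pooled list, 244 in replicate 2 and 371 in replicate 3. At mRpL20, another protein with a bacterial counterpart, it had 415, 149 and 274 in the same order of lists. At mRpS2, of the small subunit, it had 287, 120 and 166. These 3 regions ranked 439, 911 and 1575 of the pooled list, and each ranked better in replicate 3 than in replicate 2. At mRpL2, whose counterpart L2 lies near the peptidyl transferase centre, the region had 238 in the pooled list (rank 2056), 133 in replicate 2 and 111 in replicate 3. It was the only one of these regions with a better rank in replicate 2 (1466) than in replicate 3 (2650). The 8 weakest lay below the 2663 strongest of the 5327 IDR regions. They were mRpL34 (159), mRpS6 (149), mRpS26 (137), mRpS25 (136), mRpL11 (127), mRpL21 (125), mRpL37 (121) and mRpS31 (108, rank 5240), in pooled signal. In the single lists their matched regions had 19.2 to 63.7 in replicate 2, with none matched at mRpS26, and 69.7 to 108 in replicate 3. The lowest signal in the IDR list was 106, so mRpS31 was close to the end of the list. The signal of the strongest member was 16.1 times that of the weakest.

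Set against all protein-coding genes with an IDR summit, the members had a similar centre and a wider spread. Their median pooled signal was 198 (quartiles 134 and 803, n = 16), against 217 (quartiles 145 and 382, n = 1870). The share among the 1000 strongest regions was 6 of 16 members (37.5%, interval 18.5 to 61.4), against 24.1% of these genes. The share among the 2663 strongest was 8 of 16 members (50%), against 56.5% of these genes.

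**Figure D2:**
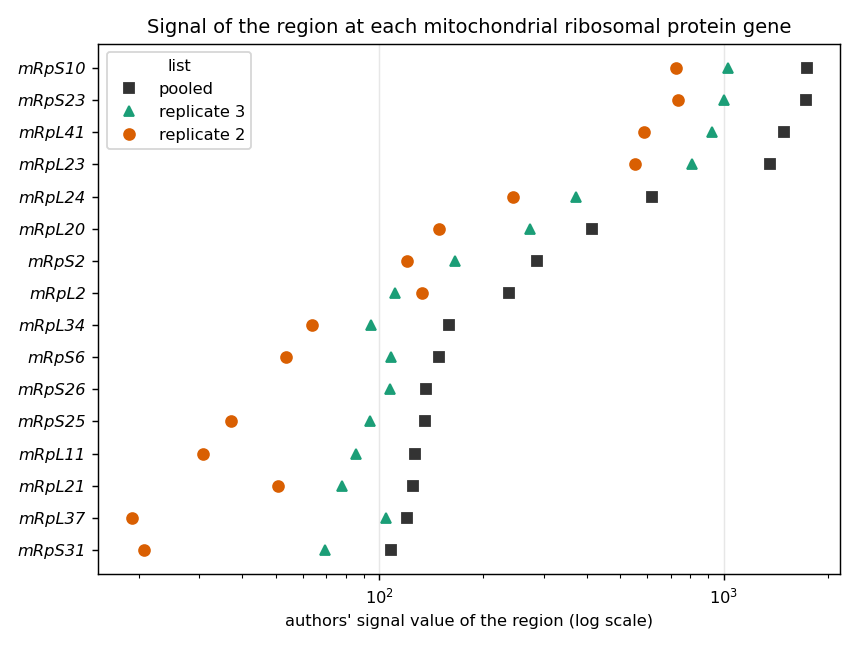
The authors' signal value (log axis) of the region at each of the 16 members with an IDR summit, in the pooled list (squares), replicate 3 (triangles) and replicate 2 (circles), with members ordered by pooled signal. mRpS10, mRpS23, mRpL41 and mRpL23 lie at 1359 or more in the pooled list, and the next member, mRpL24, lies at 618.

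Most summits lay upstream of the start site, in the gap between a pair of divergent genes. Relative to the nearest start site of the member, 15 of 16 summits were upstream (93.8%, interval 71.7 to 98.9), against 86.6% of 1870 genes, at a median of -171 bp for members and -160 bp for all genes. In 14 cases the summit was between genes, a share not counted over all genes. At mRpL2 it lay in an intron of FoxK, which encodes another forkhead factor, and at mRpL23 it lay 59 bp downstream of a start site, in the 5′ UTR. In 14 of 14 members with a shared promoter and an IDR summit the partner gene was on the opposite strand. Over all protein-coding genes, 947 of the 998 of that kind also had a start site on the opposite strand within 500 bp. This arrangement is therefore not particular to the members. The summit lay upstream of the partner's start site nearest to it in each case, though FoxK has another start site closer to mRpL2. The median distance from the summit to the partner's nearest start site was 108 bp (range 34 to 382), and to the member's own it was 171 bp (range 59 to 400). These distances were not measured over all genes with a shared promoter and an IDR summit.

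The partners have varied functions. Summits lay closer to the partner in 11 of the 14 members. At mRpS10 the summit was 120 bp from the start site of Art3, an arginine methyltransferase gene, and 137 bp from that of mRpS10. At mRpS23 it was 106 bp from CenG1A, which encodes an Arf GTPase-activating protein, and 386 bp from mRpS23. At mRpL24 the distances were 90 bp to betaggt-I, a prenyltransferase subunit gene, and 128 bp to mRpL24. At mRpL20 they were 144 bp to Icmt, an isoprenylcysteine methyltransferase gene, and 255 bp to mRpL20. The summit at mRpS2 was 92 bp from Mon1, an endosome maturation gene, and the one at mRpL2 was 94 bp from FoxK and 342 bp from mRpL2. For the other closer partners, the distances to their start sites were 179 bp for Dg (dystroglycan, beside mRpL34), 191 bp for CG13698 (beside mRpS26), 34 bp for HtrA2 (a mitochondrial protease gene, beside mRpL11), 49 bp for rept (an ATPase of chromatin remodelling complexes, beside mRpL21) and 57 bp for hzg (beside mRpS31).

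In 3 pairs the member was closer. The summit was 59 bp from mRpL23 and 109 bp from CG9004, and 66 bp from mRpS6 and 382 bp from Cip4, an F-BAR protein gene. At mRpL37 it was 83 bp from the start site of that gene. Outside shared promoters, the summit at mRpL41 (2R, region 15217578 to 15217923 in dm6) was 135 bp upstream of its start site with no other start site nearer. The summit at mRpS25 was 479 bp upstream of that gene and 216 bp from the start site of nmdyn-D6, a nucleoside diphosphate kinase gene. The summits nearest the 500 bp limit were therefore mRpS25 at 479 bp and mRpS31 at 400 bp. Outside the limit, no further member had an IDR summit within 1000 bp, and the next were mRpL27 at 1194 bp and mRpL13 at 1457 bp.

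**Figure D3:**
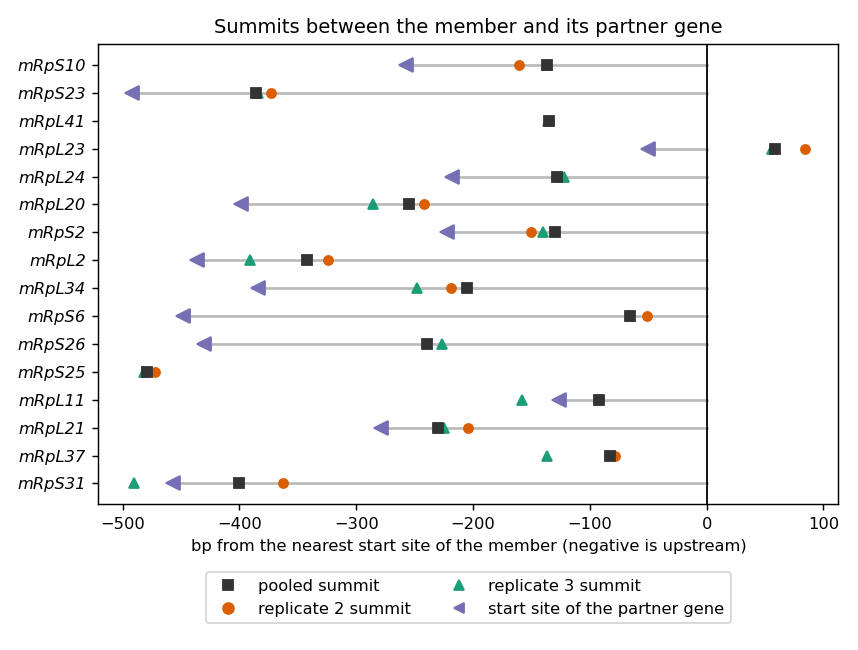
Position of the summits at the 16 members in bp from the member's nearest start site (vertical line, negative values upstream), in the pooled list (squares), replicate 2 (circles) and replicate 3 (triangles), with the partner's start site as a left-pointing triangle joined to the member by a grey line (not drawn for mRpL37). Most squares lie left of the line and nearer the partner, and mRpL23 lies 59 bp to its right.

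The strong regions were strong in both replicates, and the weak ones ranked better in replicate 3. A summit of each replicate lay within 100 bp of the IDR summit at 15 of 16 members (93.8%, interval 71.7 to 98.9), against 91.0% of 1870 genes with an IDR summit. The exception was mRpS26, where replicate 2 had its nearest counted summit at -111 bp from the start site with a signal of 37.9 (rank 7402), while the IDR summit was at -239 bp and replicate 3 had 107 (rank 2769). The matching replicate 3 region was among the 5327 strongest of that replicate at 16 of 16 members, against 91.2% of these genes. The matching replicate 2 region was among its 5327 strongest at 11 of 16 members (68.8%, interval 44.4 to 85.8), against 79.4% of these genes. The rank was better in replicate 3 than in replicate 2 at 14 of the 15 matched members. The median ratio of replicate 2 rank to replicate 3 rank was 1.44 over these members and 1.21 over 1702 genes.

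The widest gap between replicates was at mRpL37, which encodes a large-subunit protein specific to mitochondria. Its region had a signal of 19.2 in replicate 2 (rank 26353 of 28127) and 105 in replicate 3 (rank 2866 of 30000). The rank ratio of 9.20 was also the highest over those 1702 genes. At mRpS31 the region had 20.8 in replicate 2 (rank 22627) and 69.7 in replicate 3 (rank 4573). At mRpL11, whose counterpart L11 is at the base of the ribosomal stalk, it had 30.7 in replicate 2 (rank 10323) and 85.6 in replicate 3 (rank 3631). At mRpS25 it had 37.1 (rank 7616) and 94.1 (rank 3282). All 4 of these regions are among the weaker ones in the pooled list. Summit positions moved by a median of 14 bp in replicate 2 (n = 15) and 8 bp in replicate 3 (n = 16), by at most 37 and 90 bp.

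Beyond the IDR list, more members had weak regions, at shares close to the background by the 500 bp rule and below it by the nearest start site. In the pooled list 29 of 73 had a summit (39.7%, interval 29.3 to 51.2), against 34.6% of all protein-coding genes and 44.1% of all genes with a shared promoter. In replicate 2 the count was 27 of 73 (37.0%, interval 26.8 to 48.5), against 32.2% of all genes, and in replicate 3 it was 32 of 73 (43.8%, interval 33.0 to 55.2), against 35.9% of all genes. Counting the nearest start site only, the pooled count was 10 of 73 (13.7%, interval 7.61 to 23.4), against 29.5% of all genes. These lists hold background regions as well as peaks, as the authors' input to IDR. The median rank of the strongest pooled summit was 4621 over the 29 members and 7623 over 4833 genes.

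There were 13 members with a pooled summit and no IDR summit, of the 29 with a pooled summit. Over all protein-coding genes 4833 of 13968 had a pooled summit, and 1870 of these had an IDR summit. A weak region without an IDR summit was therefore not particular to the members. The strongest was mRpL18, with a pooled signal of 102 (rank 5570), just outside the IDR list, and signals of 30.8 in replicate 2 and 58.4 in replicate 3. At mRpS22 the pooled signal was 98.1, with 24.99 in replicate 2 and 76.4 in replicate 3. At mRpL44 it was 81.1, with 20.3 in replicate 2 and 63.0 in replicate 3. The next by pooled signal were mRpS29 (77.1), mRpL51 (77.0), mRpL35 (74.0), mRpS21 (69.7), mRpS24 (66.5), mRpS17 (56.3) and mRpL54 (56.0), and the other 3 had pooled signals of at most 50.1. Neither mRpS29 nor mRpL43 had a summit in a single replicate. Another 8 members had a summit in 1 replicate and none in the pooled list, 5 of them in replicate 3 and 3 in replicate 2. Such genes were not counted over the whole annotation. The strongest in replicate 2 was at mRpS7 (57.0, rank 4368), which had no summit in replicate 3 or in the pooled list.

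No summit of any of the 4 lists lay within 500 bp of 36 members. The same count was not made over all protein-coding genes. In the pooled list alone 34.6% of all genes had a summit, against 39.7% of members. These were mRpL1, mRpL3, mRpL4, mRpL9, mRpL12, mRpL13, mRpL14, mRpL15, mRpL16, mRpL19, mRpL22, mRpL28, mRpL30, mRpL32, mRpL33, mRpL38, mRpL39, mRpL40, mRpL42, mRpL45, mRpL46, mRpL47, mRpL48, mRpL49, mRpL50, mRpL52 and mRpL55 of the large subunit. Those of the small subunit were mRpS9, mRpS14, mRpS18A, mRpS18C, mRpS28, mRpS30, mRpS33, mRpS34 and mRpS35. They include mRpL12, whose counterpart forms the ribosomal stalk, and mRpL3, a core protein with a bacterial counterpart, so proteins of the same subunit fell on both sides. At unknown depth, no listed region does not mean no binding.

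**Figure D4:**
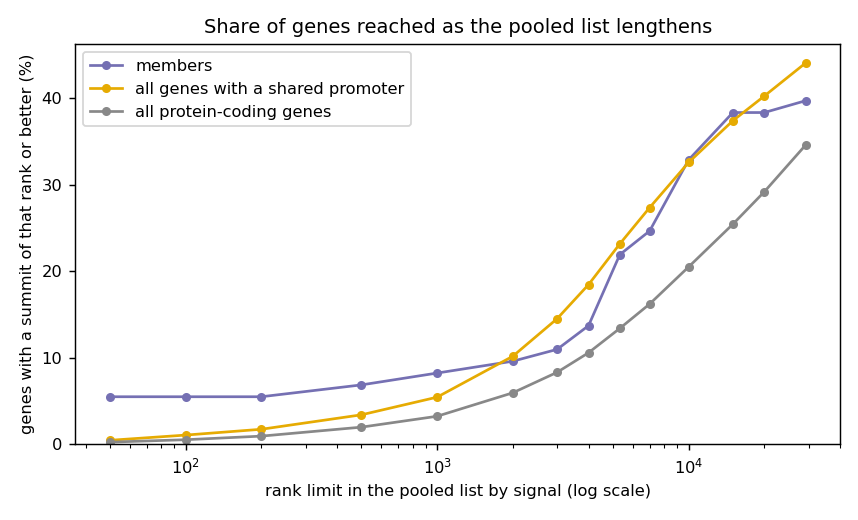
Percent of genes whose strongest pooled summit within 500 bp has the rank on the horizontal axis (log scale) or a better one, for mitochondrial ribosomal protein genes, all genes with a shared promoter and all protein-coding genes. The members start at 5.48% by rank 50 because of 4 regions and lie above the genes with a shared promoter up to rank 1000. They lie below those genes from rank 2000 to 7000 (13.7% and 18.4% at rank 4000) and slightly above them at rank 10000 and 15000. From rank 20000 they are below again, and over the whole pooled list the shares are 39.7% and 44.1%.

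The spacing of start sites overlapped widely between members with and without a summit. Members are short genes, with a median length of 909 bp against 2164.5 bp over all protein-coding genes, and 67 of 73 have 1 start site (91.8%), against 73.5% of all genes. Among members with a start site on the opposite strand within 500 bp, the median gap between the start sites was 285 bp at the 14 with an IDR summit (quartiles 219 and 422 bp) and 242 bp at the 39 without one (quartiles 56 and 397 bp), against 264 bp over all such genes with an IDR summit. Of those 39, the 22 with no summit in any list had a median of 118 bp (quartiles 46.3 and 406 bp). An IDR summit was present at 11 of 31 members with a gap of over 200 and up to 500 bp (35.5%, interval 21.1 to 53.1), against 28.8% of all such genes. With a gap of at most 200 bp it was present at 3 of 22 members (13.6%, interval 4.75 to 33.3), against 18.1% of all such genes. The same order was thus present over all genes. By chromosome arm, 7 of 17 members on 3L had an IDR summit (41.2%, interval 21.6 to 64.0), against 14.6% of all genes of that arm. The counts were 3 of 12 on 2L (25%, interval 8.89 to 53.2), against 13.7% of its genes, and 2 of 12 on 2R (16.7%, interval 4.70 to 44.8), against 12.4% of its genes. They were 3 of 21 on 3R (14.3%, interval 4.98 to 34.6), against 13% of its genes, and 1 of 11 on X (9.09%, interval 1.62 to 37.7), against 13.9% of its genes. The members' intervals overlap between all of these arms, and 3L stands out after 5 arms were looked at.

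GC content dipped at the summits of members as it did at those of other genes. Within 50 bp of the summit the median GC content was 30.2% over the 16 members (range 17.8 to 48.5) and 31.7% over 1870 genes. It was 21.8% at mRpL41 and 22.8% at mRpL23, and highest, at 48.5%, at mRpL21. In windows of 21 bp the members' mean was lowest 20 bp upstream of the summit (23.2%), and was 30.7% at the summit, where that of all genes was lowest (31.8%). At 300 bp upstream the mean was 48.2% ± 18.7 over members and 43.4% ± 14.7 over all genes, and at 300 bp downstream it was 43.8% ± 18.99 over members and 46.5% ± 13.8 over all genes (SD over genes), so single genes of both sets overlap widely. Dependence of the calls on GC content was not tested.

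**Figure D5:**
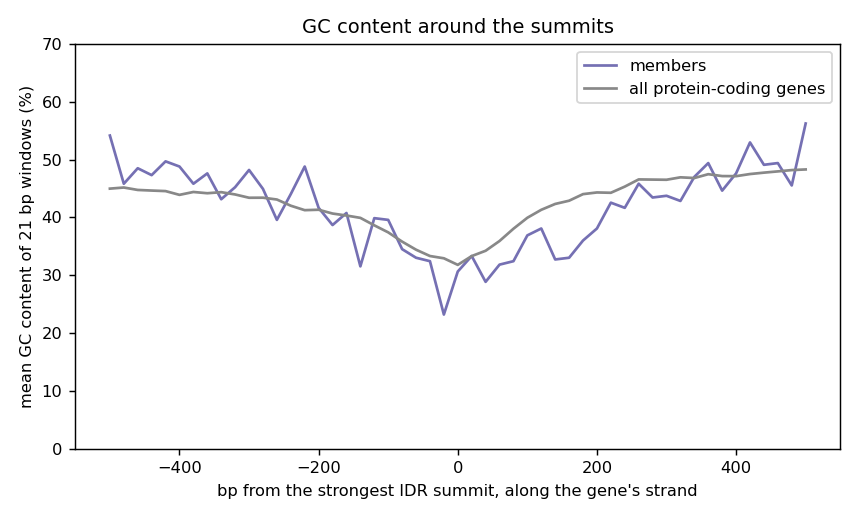
Mean GC content in windows of 21 bp against the distance from the strongest IDR summit, along the strand of the gene, for the 16 members (purple) and for 1870 protein-coding genes (grey). Both curves dip around the summit, to 23.2% at -20 bp for members and 31.8% at 0 bp for all genes, and the members' curve is rougher because it averages 16 genes.

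Matches to the forkhead core were present at a minority of the summits. TAAACA was found on either strand in 4 of 16 windows of 50 bp to either side of the summit, at mRpS10, mRpL24, mRpL11 and mRpS31 (25%, interval 10.2 to 49.5), against 14.5% of 1870 genes with an IDR summit. TAATTA was found in 3 of 16, at mRpL24, mRpS2 and mRpS25 (18.8%, interval 6.59 to 43.0), against 11.5% of these genes. TGCGCA, part of the site of the NRF-1 relative erect wing, was found in 2 of 16, at mRpL21 and mRpS26 (12.5%, interval 3.50 to 36.0), against 1.93% of these genes. GAGAG, the GAGA factor site, was found at mRpL23 alone, against 8.72% of these genes. TATCGATA (DREF), GGTCACACT (M1BP), CAGCTG (an E-box), CCGGAA (ETS) and GACGC (an alternate forkhead site) were found in 0 of 16 windows, which allows a share of up to 19.4% by the same interval. With 100 bp to either side the counts became 2 for CAGCTG, 1 for GGTCACACT, 1 for CCGGAA, 3 for GAGAG, 5 for TAATTA and 6 for TAAACA, while TGCGCA stayed at 2 and TATCGATA and GACGC at 0. With 16 windows each of these intervals is wide, and a match or its absence in this window says nothing on binding.

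Counts for other gene sets of the ribosome and the mitochondrion were made by the same 500 bp rule. The members had an IDR summit at 16 of 73 genes and 6 genes among the 1000 strongest regions, with a highest signal of 1740. Cytosolic ribosomal protein genes (RpL and RpS) had one at 48 of 85 genes (56.5%, interval 45.9 to 66.5), with a median signal of 179, a highest signal of 561 and 1 gene among the 1000 strongest. Complex I genes (ND) had a summit at 6 of 40 (interval 7.06 to 29.1%), ATP synthase genes at 1 of 15 (1.19 to 29.8%), import genes (Tom and Tim) at 2 of 15 (3.74 to 37.9%) and proteasome genes at 3 of 48 (2.15 to 16.8%). Each of these 4 intervals holds the 13.4% of all protein-coding genes. Mitochondrial aminoacyl-tRNA synthetase genes had one at 0 of 15, which allows a share of up to 20.4%. Of 12 matched genes for mitochondrial translation factors 1 had an IDR summit, GatA, a subunit of the tRNA amidotransferase (217, rank 2303), and mEFTu1, mEFTu2, mEFTs, mEFG1, mIF2, mIF3, mRRF1, mRRF2, mRF1, GatB and GatC had none. None of the 13 mitochondrial DNA and RNA factor genes, TFAM, mtTFB1, mtTFB2, PolrMT, mTTF, mTerf3, mTerf5, PolG1, PolG2, mtSSB, mtDNA-helicase, bsf and Lrpprc2, had one. Of these, 3 had a pooled summit, mtSSB (96.4), PolrMT (60.2) and mTerf5 (52.6). The genes tko and bonsai, which encode mitochondrial small-subunit proteins under other symbols, had no summit in the IDR or pooled list.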

How the data were processed

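The lists are of anti-GFP ChIP-seq regions from 2 biological replicates and from their pooled alignments, in genome build dm6. The authors deposited for each region a signal value, a −log10 q-value and a summit offset, in 4 dm6 lists (2 single, pooled, IDR). A control alignment is among the parents of the calls, per the deposited file listing. The sources used here give no caller, caller version, IDR threshold or scaling. Signal was used to rank and describe regions, and −log10 q only for an alternative ranking. The dm3 lists were not used, and depth is unknown.

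Start sites came from Ensembl release 115 and sequence from the dm6 assembly in RefSeq, whose chromosome lengths are the same. Replicate summits were matched within 100 bp. Shares have Wilson 95% intervals. No test was run, because 1 group without controls allows none. Counting code was checked on simulated data. Python 3.11.15, numpy 2.4.6, scipy 1.17.1 and matplotlib 3.10.9 were used.

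The members and lists were chosen with earlier results of these data known. Named genes are every member with an IDR summit, the 10 strongest members with another summit, and all members with none; single values of others, such as mRpS7 and mRpL43, were chosen after their values were seen. Of 14 translation factor symbols, mEFG2 and mtRF1 matched no gene. The partner gene of mRpL37 is not reported here. Alternatives varied the window, list length, gene assignment, match distance and replicate.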

Additional observations from a re-analysis of the deposited data

How the results depend on the processing

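Of 70 alternative values, 33 stayed the same and 37 moved. Counts stayed if within 1.5 times the reported count, and upstream shares if within the reported Wilson interval. Medians stayed if they differed by no more than the SD between the values of the 2 single lists. That SD was 0 for GC content, so any GC value not identical was labelled as moved. Only the median position could change sign, and it did not. Against all protein-coding genes, however, the direction turned with the nearest start site only, in each list: 5.48% of members against 10.2% of all genes for IDR, 13.7% against 29.5% for the pooled list, 16.4% against 27.9% for replicate 2 and 16.4% against 30.6% for replicate 3. For IDR the members' interval of 2.15 to 13.3 holds the 10.2%, so a lower share is not resolved there. For the pooled list the interval of 7.61 to 23.4 does not hold the 29.5%. The 16 members with an IDR summit became 8 among the 2663 strongest regions (11.0%, against 7.56% of all genes), 6 among the 1000 strongest (8.22%, against 3.22%) and 4 with the nearest start site only. All 16 kept a summit among the equally many strongest regions of replicate 3 alone, which added mRpL44, mRpS21, mRpS22 and mRpS24, and those of replicate 2 alone kept 11, without mRpL11, mRpL37, mRpS25, mRpS26 and mRpS31, and added mRpS7, so that leaving out a replicate gave 12 (16.4%, against 12.04%) to 20 (27.4%, against 14.2%). The 29 pooled members became 18 within 250 bp (24.7%, against 25.2%), 10 with the nearest start site only and 16 among the 5327 strongest (21.9%, against 13.4%). That 16 is the IDR count again and no separate result, because the 5327 strongest pooled regions are the IDR list. The 27 of replicate 2 became 12 with the nearest start site only and 12 among the 5327 strongest (16.4%, against 12.04%). The 32 of replicate 3 became 12 with the nearest start site and 20 among the 5327 strongest (27.4%, against 14.2%). These values among the 5327 strongest are those given above for leaving out a replicate. Members matched in both replicates became 8 among the 2663 strongest and 6 among the 1000 strongest. Leaving out a replicate gives no value there, because both are needed.

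The median position became -136 bp among the 2663 and the 1000 strongest, -130 bp within 250 bp, and -191.5 to -182.5 bp without a replicate. The median signal became 989 among the 2663 strongest, 1427 among the 1000 strongest, 159 within 250 bp, and 106 to 141 on the scales of the single lists. The median GC content became 22.3% among the 2663 and the 1000 strongest, 29.7% within 250 bp, 28.2% without either replicate and 31.6% over 100 bp either side of the summit. With 250 bp between start sites, 26 members had a shared promoter, 5 of them with an IDR summit. That 14 became 7 among the 2663 strongest and 5 among the 1000 strongest. No paired analysis was possible because the samples form 1 group. Depth is unknown, so members without a region are not shown to be unbound.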

Other observations

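The 250 bp upstream of the gene's 5′ end were searched in all members, with or without a summit. The DREF site TATCGATA was found at 9 of 73 members (12.3%, Wilson 95% interval 6.62 to 21.8), against 7.99% of 13968 protein-coding genes. CAGCTG was found at 16 of 73 (21.9%, interval 13.97 to 32.7), against 13.4% of all genes, and GAGAG at 8 of 73 (11.0%, interval 5.66 to 20.2), against 25.7% of all genes. The forkhead core TAAACA was found at 25 of 73 (34.2%, interval 24.4 to 45.7), against 27.7% of all genes. It was present at 6 of 16 members with an IDR summit (37.5%) and at 19 of 57 without one (33.3%). The alternate forkhead site GACGC was found at 0 of 16 members with an IDR summit (interval up to 19.4%) and at 11 of 57 without one (19.3%, interval 11.1 to 31.3). These intervals overlap, and both hold the 16.2% of all genes. The other motifs searched were near the share of all genes. GGTCACACT was found at 2.74% of members against 3.11%, CCGGAA at 2.74% against 5.33%, TGCGCA at 5.48% against 5.80% and TAATTA at 20.5% against 19.4%. The median GC content of this stretch was 31.0% at members with an IDR summit and 33.2% at those without, against 36.4% and 37.2% at all genes with and without one.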
